A study of Homo sapiens with 9 samples.

Results

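p53 is a transcription factor that is stabilised by DNA damage and other stress, and it acts mainly by raising the transcription of target genes. Its targets stop the cell cycle, repair DNA, balance metabolism or start cell death, and MDM2, itself a target, closes a feedback loop by marking p53 for degradation. In blood cells this programme limits damaged progenitors, and in leukaemia it is often weakened. The genes described here are 9 targets of p53, chosen by symbol: MDM2, FAS, ZMAT3, SESN1, TP53INP1, DDB2, XPC, RRM2B and BTG2. All 9 were found among the 26485 gene symbols of the count table, and all 9 were among the 12845 genes that passed the filter on low counts.

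Counts came from RNA sequencing of MV4;11, an acute myeloid leukaemia cell line, in 9 libraries. There were 3 libraries of cells with MYC carrying the K148R substitution, 3 of cells with the K148Q substitution and 3 of parental cells. All cells were untreated and grown in RPMI, and MYC is the transcription factor that drives cell growth. Arginine is charged like lysine but takes no acetyl group, whereas glutamine is uncharged and resembles the acetylated residue. The labels used here do not say how the substitutions were made, whether each mutant line is a single clone, or whether libraries of a genotype came from separate cultures. The p-values therefore measure the spread between these libraries, which may be technical, and a difference between clones cannot be told apart from an effect of the substitution.

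Total counts ran from 15161009 to 18938391 in K148R, from 14477839 to 15708821 in K148Q and from 13747087 to 16636974 in parental libraries. MYC mRNA averaged 379 ± 3.38 CPM in K148R, 473 ± 29.5 CPM in K148Q and 333 ± 4.05 CPM in parental cells (SD, n = 3 each), where CPM are counts scaled to library size with TMM factors. Gene counts do not show the substituted codon. All 9 myeloid and leukaemia markers that were checked, from CD33 and SPI1 to MPO and HOXA9, were detected in every genotype. Their summed level was 2624 to 2656 CPM in K148R, 1707 to 1783 CPM in K148Q and 1207 to 1214 CPM in parental libraries. LYZ made up most of the K148R sum, averaging 1649 CPM in K148R, 491 CPM in K148Q and 161 CPM in parental cells. The sum therefore does not stand for the 9 markers as a set. In K148R against parental cells 6 of the 9 markers rose and 3 fell, among them LYZ (10.3-fold), CSF1R (4.17-fold) and ITGAM (2.34-fold) higher, and MPO (2.61-fold) and FLT3 (2.17-fold) lower. In K148Q against parental cells 4 of the 9 markers rose and 2 fell. Over all tested genes 37.8% were called higher and 37.3% lower in K148R against parental cells. In K148Q against parental cells the shares were 27% and 26.3%. The T cell, B cell and epithelial markers CD3E, MS4A1 and EPCAM were at 0 in all 9 libraries. The keratin gene KRT8 averaged 1.77 CPM in K148R, 0.873 CPM in K148Q and 11.3 CPM in parental cells, and the endothelial and myeloid marker PECAM1 averaged 181, 217 and 98.9 CPM in the same genotypes. RN7SK, a non-polyadenylated RNA, was at 434.6 to 522.6 CPM in K148R, 3.72 to 7.43 CPM in K148Q and 4.17 to 15.98 CPM in parental libraries, and the part of the markers and of RN7SK in the results for the 9 genes was not tested. K148Q replicate 3 stood apart from K148Q replicates 1 and 2, as the chi-square of its counts over genes was 17.3 and 17.8 per degree of freedom against them, and 1.34 between replicates 1 and 2. The same measure was 3.01 to 5.21 between K148R libraries and 1.54 to 1.62 between parental libraries. Fold changes of the 9 genes that use K148Q libraries are given with and without K148Q replicate 3.

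p53 binds DNA as a tetramer, at an element made of a pair of half-sites of 10 bases each. Where the RefSeq tables gave promoter windows, from 250 bases before to 50 bases after an annotated start, these were searched for such elements, because p53 acts on its targets through them. Windows were given for 7 of the 9 genes and there were 16 of them, some overlapping. The search used the p53 consensus half-site, which is palindromic and so covers both strands. It required the C at position 4 and the G at position 7 of both half-sites, allowed a spacer of at most 1 base, and accepted up to 3 mismatches over the 20 bases. Of all 35116 promoter windows, 2.38% held a match with up to 3 mismatches, 0.533% with up to 2 and 0.0199% with 0. Matches were found near a start of MDM2, FAS, SESN1 and DDB2. They are given with 20 bases on either side, 5′ to 3′ on the strand of the gene, with the half-sites in capitals (RefSeq, GRCh38.p14).
MDM2, chr12:68808903-68808962, + strand: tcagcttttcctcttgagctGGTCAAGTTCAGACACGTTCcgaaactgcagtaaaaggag
FAS, chr10:88991289-88991348, + strand: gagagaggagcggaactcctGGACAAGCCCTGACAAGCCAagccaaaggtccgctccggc
SESN1, chr6:109008998-109009057, - strand: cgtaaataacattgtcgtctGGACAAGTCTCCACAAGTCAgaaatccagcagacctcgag
DDB2, chr11:47214959-47215019, + strand: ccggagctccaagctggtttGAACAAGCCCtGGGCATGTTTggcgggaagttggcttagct

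The DDB2 element had 0 mismatches and a spacer of 1 base. The MDM2 and FAS elements had 2 mismatches each and the SESN1 element had 3, all without a spacer. In GENCODE v29 the MDM2 and SESN1 elements lay within introns, and the FAS and DDB2 elements overlapped an exon of at least 1 annotated transcript. In DDB2 a second match, with 1 mismatch and no spacer, overlapped the element shown. No match was found in the windows of ZMAT3, XPC and BTG2, which says only that these letters are not in these windows. The E-box CACGTG, a palindrome that MYC and MAX bind, was in none of the 16 windows, against 7.26% of all windows. A match in sequence is not evidence of binding in these cells.

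MDM2 (chromosome 12, 68808176 to 68850686, + strand), the ubiquitin ligase that holds p53 down, had levels of 208, 206 and 228 CPM in K148R, 110, 106 and 156 CPM in K148Q, and 144, 149 and 133 CPM in parental libraries. All 3 K148R libraries lay above every other library, while K148Q replicates 1 and 2 lay below the parental libraries and K148Q replicate 3 above them. By edgeR's quasi-likelihood test with Benjamini-Hochberg adjustment over all tested genes, MDM2 was 1.51-fold higher in K148R than in parental cells (log2 fold change 0.60, SE 0.123, adjusted p = 0.00096). It was 1.73-fold higher in K148R than in K148Q cells (adjusted p = 0.00014). In K148Q against parental cells the log2 fold change was -0.19 (95% interval -0.47 to 0.08, adjusted p = 0.22). Without K148Q replicate 3 it was -0.38 and passed (adjusted p = 1.1e-07). An antisense gene shares 5.91% of the MDM2 exon bases in GENCODE v29, and a pseudogene on the same strand 3.3%. The protein-coding gene named CPM, on the opposite strand, shares 1.0%. In bulk RNA, a change in the number of cells that express a gene and a change in RNA per cell cannot be told apart.

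Among the genes of cell death, FAS (chromosome 10, 88990582 to 89015785, + strand) encodes a death receptor at the cell surface. It was at 14.9, 13.8 and 16.5 CPM in K148R, 5.80, 5.27 and 8.06 CPM in K148Q, and 6.87, 6.15 and 6.67 CPM in parental libraries. The K148R libraries stood above all others, and the K148Q and parental libraries overlapped. FAS was 2.29-fold higher in K148R than in parental cells (log2 fold change 1.20, SE 0.144, adjusted p = 2.5e-06) and 2.36-fold higher than in K148Q cells (adjusted p = 2.2e-06). Between K148Q and parental cells its log2 fold change was -0.04 (95% interval -0.38 to 0.30, adjusted p = 0.85), and -0.24 without K148Q replicate 3 (adjusted p = 0.18). The sign turned when K148Q replicate 1 (0.03) or 2 (0.08) was left out. Of the FAS exon bases in GENCODE v29, 8.93% are shared with ACTA2 on the opposite strand, and no strand setting is recorded. ACTA2 was at 5.58 ± 0.171 CPM in K148R, 7.55 ± 0.688 CPM in K148Q and 9.85 ± 1.18 CPM in parental cells (SD, n = 3 each), and fell in K148R and in K148Q against parental cells (adjusted p = 4e-05 and 0.017).

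TP53INP1 (chromosome 8, 94925972 to 94949411, - strand) encodes a nuclear protein that promotes cell death and autophagy. Its levels were 23.5, 28.5 and 27.7 CPM in K148R, 6.13, 6.91 and 11.3 CPM in K148Q, and 6.81, 6.80 and 6.49 CPM in parental libraries. Again the K148R libraries stood apart from both other genotypes, and K148Q replicate 3 was the highest of the remaining 6. TP53INP1 was 3.96-fold higher in K148R than in parental cells (log2 fold change 1.98, SE 0.175, adjusted p = 1.5e-07) and 3.26-fold higher than in K148Q cells (adjusted p = 7e-07). Its log2 fold change in K148Q against parental cells was 0.28 (95% interval -0.14 to 0.70, adjusted p = 0.24), and -0.03 without K148Q replicate 3 (adjusted p = 0.87).

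ZMAT3 (chromosome 3, 179017223 to 179072279, - strand) encodes a zinc finger protein that binds RNA and is known as a p53 target in growth control. It had another pattern, with 35.1, 36.7 and 39.6 CPM in K148R, 14.5, 15.0 and 22.7 CPM in K148Q, and 28.6, 33.3 and 33.3 CPM in parental libraries. Here the K148Q libraries were the ones that stood apart, below all others. ZMAT3 was 1.82-fold lower in K148Q than in parental cells (log2 fold change -0.86, SE 0.143, adjusted p = 0.00021), and without K148Q replicate 3 the log2 fold change was -1.09 (adjusted p = 2e-12). It was 2.13-fold higher in K148R than in K148Q cells (adjusted p = 1.1e-05). Between K148R and parental cells its log2 fold change was 0.23 (95% interval -0.07 to 0.52, adjusted p = 0.15). That difference passed when the fit left out K148Q replicate 3 (0.22, adjusted p = 0.0063) or held only the K148R and parental libraries (0.22, adjusted p = 0.0091).

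BTG2 (chromosome 1, 203305491 to 203309602, + strand), which encodes an anti-proliferative protein that promotes the shortening of poly(A) tails, had the largest difference among the 9 genes. It was at 157, 162 and 154 CPM in K148R, 28.9, 26.7 and 26.1 CPM in K148Q, and 29.5, 29.9 and 29.5 CPM in parental libraries. The K148R libraries were far above the rest, and the K148Q libraries lay closely below the parental ones. BTG2 was 5.32-fold higher in K148R than in parental cells (log2 fold change 2.41, SE 0.0646, adjusted p = 1.3e-13) and 5.8-fold higher than in K148Q cells (adjusted p = 1.2e-13). Its change against parental cells was larger in size than that of 91.3% of all tested genes. Between K148Q and parental cells the log2 fold change was -0.12 (95% interval -0.27 to 0.02, adjusted p = 0.14), and -0.08 without K148Q replicate 3 (adjusted p = 0.32).

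SESN1 (chromosome 6, 108986437 to 109094819, - strand) encodes sestrin 1, which restrains mTORC1 signalling under stress. It followed the pattern of ZMAT3, with 36.8, 39.4 and 39.3 CPM in K148R, 16.4, 19.6 and 25.045 CPM in K148Q, and 40.1, 43.9 and 42.5 CPM in parental libraries. The K148Q libraries lay below all others, and the K148R libraries lay just under the parental ones without overlap. SESN1 was 2.07-fold lower in K148Q than in parental cells (log2 fold change -1.05, SE 0.118, adjusted p = 4.1e-06), and -1.22 on the log2 scale without K148Q replicate 3. In K148R against parental cells the log2 fold change was -0.13 (95% interval -0.37 to 0.11, adjusted p = 0.3). SESN1 was 1.89-fold higher in K148R than in K148Q cells (adjusted p = 6.2e-06). An antisense gene shares 7.09% of its exon bases.

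RRM2B (chromosome 8, 102204502 to 102239118, - strand) encodes the p53-inducible small subunit of ribonucleotide reductase, which supplies deoxynucleotides for DNA repair. Its levels were 187, 199 and 217 CPM in K148R, 89.7, 82.4 and 127 CPM in K148Q, and 116, 114 and 118 CPM in parental libraries. As with MDM2, the K148R libraries were the highest and K148Q replicate 3 alone among the K148Q libraries exceeded the parental ones. RRM2B was 1.73-fold higher in K148R than in parental cells (log2 fold change 0.79, SE 0.13, adjusted p = 0.00018) and 2.01-fold higher than in K148Q cells (adjusted p = 3.1e-05). Between K148Q and parental cells it did not pass (log2 fold change -0.22, 95% interval -0.51 to 0.07, adjusted p = 0.19), but it did without K148Q replicate 3 (-0.42, adjusted p = 5.8e-08).

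DDB2 and XPC both recognise damaged bases at the start of nucleotide excision repair, and they moved in opposite directions. DDB2 (chromosome 11, 47214465 to 47239240, + strand) was at 42.7, 41.5 and 40.7 CPM in K148R, 69.7, 67.4 and 60.3 CPM in K148Q, and 84.8, 81.7 and 86.0 CPM in parental libraries. The 3 genotypes did not overlap, with K148R lowest and parental highest. DDB2 was 2.02-fold lower in K148R than in parental cells (log2 fold change -1.01, SE 0.0698, adjusted p = 5e-09) and 1.28-fold lower in K148Q than in parental cells (log2 fold change -0.35, SE 0.0682, adjusted p = 0.00054), or -0.28 on the log2 scale without K148Q replicate 3 (adjusted p = 4.4e-05). In K148R against K148Q cells it was 1.58-fold lower (adjusted p = 8.1e-07).

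XPC (chromosome 3, 14145147 to 14178783, - strand) was at 134, 131 and 125 CPM in K148R, 81.0, 75.7 and 70.2 CPM in K148Q, and 64.8, 63.9 and 67.1 CPM in parental libraries. Its order was the reverse of that of DDB2, again without overlap between genotypes. XPC was just under 2-fold higher in K148R than in parental cells (log2 fold change 0.997, SE 0.065, adjusted p = 2.7e-09) and 1.72-fold higher than in K148Q cells (adjusted p = 4.7e-08). The rise in K148Q against parental cells was small (log2 fold change 0.21, SE 0.0658, adjusted p = 0.014) and no longer passed without parental replicate 1 (0.21, adjusted p = 0.052), parental replicate 2 (0.20, adjusted p = 0.059) or K148Q replicate 1 (0.16, adjusted p = 0.078). Without K148Q replicate 3 it was 0.27 (adjusted p = 6.7e-05). On the opposite strand, LSM3 shares 6.63%, the protein-coding gene AC090004.1 8.61% and an uncharacterised antisense gene 23.76% of the XPC exon bases. LSM3 was at 56.0 ± 1.48 CPM in K148R, 81.1 ± 10.5 CPM in K148Q and 88.7 ± 0.632 CPM in parental cells (SD, n = 3 each), and fell in K148R and did not pass in K148Q against parental cells (adjusted p = 2.8e-06 and 0.19).

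**Figure D1:**
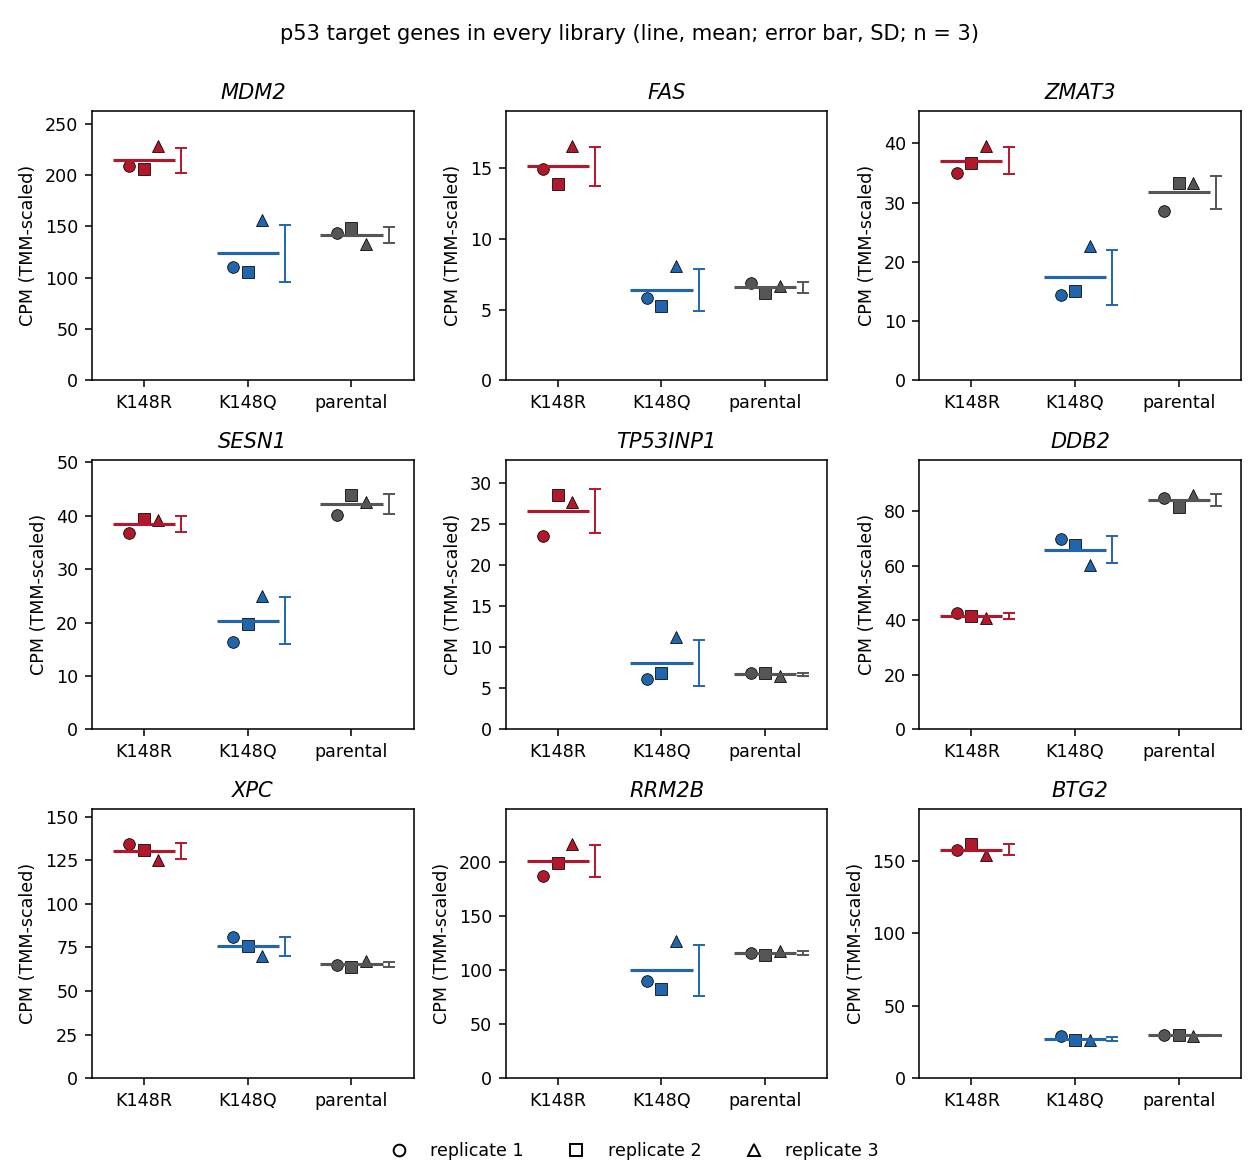
Normalised level (CPM on TMM-scaled library sizes, axes from 0) of each of the 9 genes in every library, with K148R, K148Q and parental libraries from left to right. Marker shapes are replicates, lines are means and error bars are SD of 3 libraries. BTG2, TP53INP1, FAS, MDM2, RRM2B and XPC are highest in all 3 K148R libraries, ZMAT3 and SESN1 are lowest in the K148Q libraries, and DDB2 is lowest in the K148R libraries.

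Counted over the 9 genes, 6 rose and 1 fell in K148R against parental cells, and ZMAT3 and SESN1 did not pass the test. Over all tested genes 75.1% were called in this comparison, 37.8% higher and 37.3% lower. Of the 9 genes 66.7% were thus called higher and 11.1% lower. The median log2 fold change was 0.79 over the 9 genes and -0.0035 over all tested genes. FAS, TP53INP1 and BTG2 rose at least 2-fold, as did 14.4% of all tested genes, and DDB2 fell at least 2-fold, as did 14.8%. The K148R and parental libraries did not overlap for any of the 9 genes, and the same held for 80.6% of all tested genes. Every K148R library was above every parental library for 7 of the 9 genes and below for SESN1 and DDB2, against 40.4% and 40.2% of all tested genes.

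In K148Q against parental cells 3 of the 9 genes fell (ZMAT3, SESN1 and DDB2), XPC rose and 5 did not pass. Among all tested genes 53.3% were called, 27% higher and 26.3% lower, against 44.4% of the 9 genes, a share near that of all tested genes. The median log2 fold change was -0.19 over the 9 genes and -0.0072 over all tested genes. SESN1 alone fell at least 2-fold, as did 6.68% of all tested genes, and none of the 9 genes rose at least 2-fold, as did 4.71%. The libraries of K148Q and parental cells did not overlap for 5 of the 9 genes, against 59.5% of all tested genes. Every K148Q library was above the parental ones for XPC, and below them for ZMAT3, SESN1, DDB2 and BTG2, against 29.8% and 29.7% of all tested genes. Without K148Q replicate 3, MDM2 and RRM2B joined the genes that fell, which made 5, while 31.9% of all tested genes were called lower in that fit. With XPC, 6 of the 9 genes then passed, against 64.2% of all tested genes.

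In K148R against K148Q cells 8 of the 9 genes were higher and DDB2 was lower, and all 9 passed. Over all tested genes 71% were called, 36.6% higher and 34.5% lower. The median log2 fold change was 1.01 over the 9 genes and 0.017 over all tested genes. FAS, ZMAT3, TP53INP1, RRM2B and BTG2 were at least 2-fold higher, against 13.8% of all tested genes. DDB2 was not past 2-fold, where 12.1% of all tested genes were lower by at least 2-fold. All K148R libraries were above all K148Q libraries for 8 of the 9 genes and below them for DDB2, against 37% and 34.5% of all tested genes, or 71.4% without overlap. Without K148Q replicate 3 the log2 fold change was 0.97 for MDM2, 1.43 for FAS, 2.01 for TP53INP1, 1.31 for ZMAT3 and 2.49 for BTG2. In the same fit it was 1.08 for SESN1, 1.20 for RRM2B, 0.71 for XPC and -0.74 for DDB2. The counts were also 8 higher and 1 lower in each fit that left out a library. The 3 comparisons share libraries pairwise and are not independent of each other.

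**Figure D2:**
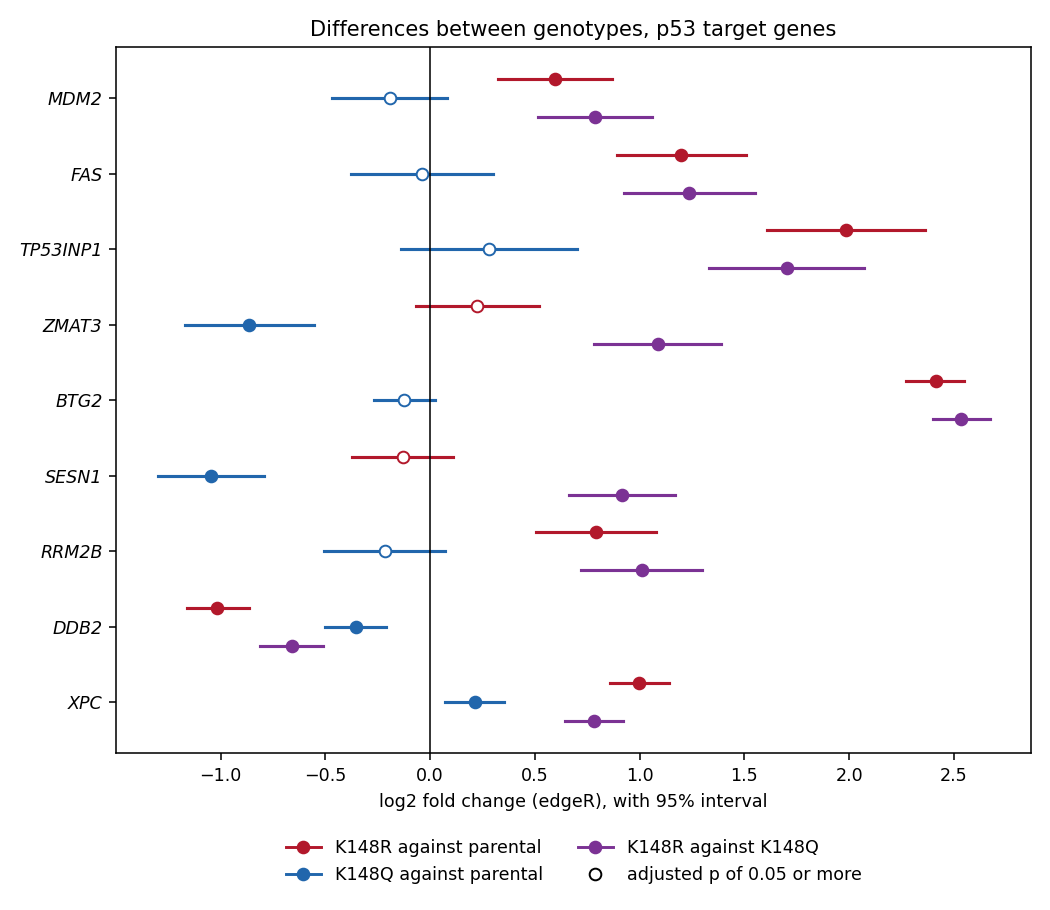
Log2 fold change of each gene in the 3 comparisons (horizontal axis, points) with its 95% interval (lines), from the edgeR fit of all 9 libraries. Open points did not pass an adjusted p of 0.05. The intervals of BTG2 in K148R against parental and K148Q cells lie farthest to the right, those of DDB2 lie left of 0 in all 3 comparisons, and ZMAT3 and SESN1 passed against parental cells in K148Q and did not in K148R cells.

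K148Q replicate 3 differed from the other K148Q libraries along with base composition. Over 12140 tested genes with an annotated transcript, the log2 ratio of K148Q replicate 3 to the mean of replicates 1 and 2 had a Spearman correlation of -0.72 with the GC content of the longest transcript, a value across genes, which are not independent replicates. MDM2, FAS, ZMAT3, SESN1, TP53INP1 and RRM2B had a GC content of 36.4% to 43.4%, under the median of 48.7%, and were 1.39-fold to 1.72-fold higher in replicate 3. DDB2, XPC and BTG2 had 50.3% to 52.5% GC and were at 0.879 to 0.941 of the level in the other K148Q libraries. Over the same 12140 genes the log2 fold change against parental cells had a Spearman correlation with GC content of 0.23 in K148R and 0.20 in K148Q cells. The correlation was 0.15 in K148R against K148Q cells, and K148Q replicate 3 was included in the fit. The part of base composition in the results for single genes was not tested.

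**Figure D3:**
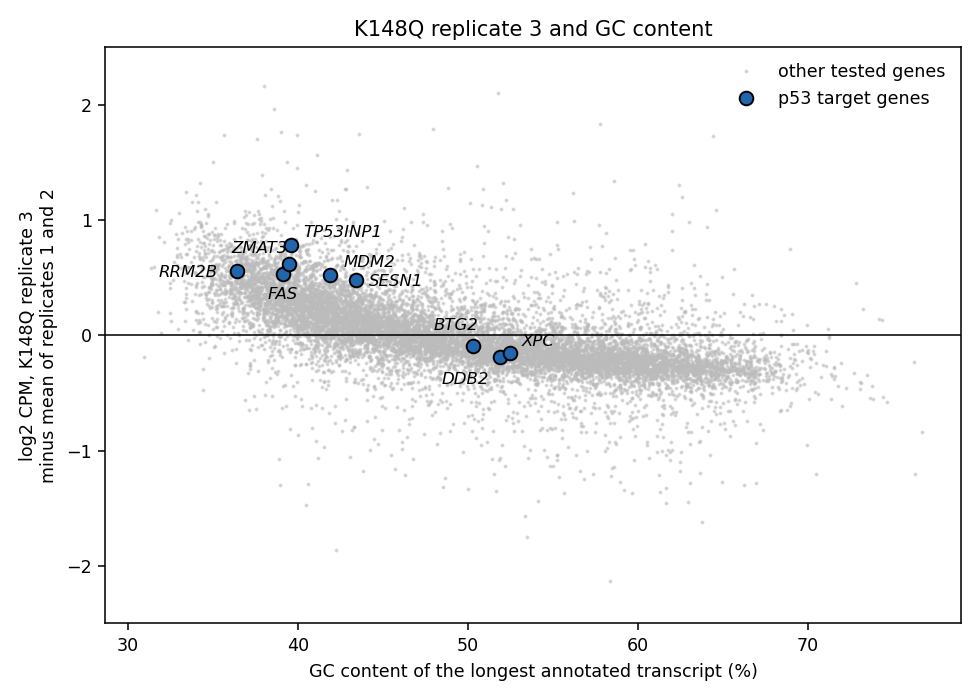
GC content of the longest annotated transcript (horizontal axis, percent) against the log2 CPM of K148Q replicate 3 minus the mean of K148Q replicates 1 and 2 (vertical axis), with grey dots for tested genes and blue circles for the 9 p53 target genes. The 6 targets with 36.4% to 43.4% GC lie above 0 and the 3 with 50.3% to 52.5% GC lie just below it, and 1 gene lies beyond the axis.

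Per exon length, levels of the 9 genes could be ranked within each genotype, as RPKM, which is CPM per kilobase of exon, with exons merged from GENCODE v29. The merged length ran from 2757 bases in BTG2 to 13284 bases in MDM2, and can exceed that of the transcripts expressed. The order between genes depends on this length, and the transcripts expressed were not determined. BTG2 led in K148R cells with 57.2 ± 1.37 RPKM, followed by RRM2B with 36.2 ± 2.7, XPC with 27.1 ± 0.961 and MDM2 with 16.1 ± 0.925 RPKM (SD, n = 3 each). FAS was last with 3.55 ± 0.321 RPKM, and only its range and that of ZMAT3, at 3.85 ± 0.235 RPKM, overlapped among neighbours in that order. In K148Q cells RRM2B (18.0 ± 4.3 RPKM) and XPC (15.8 ± 1.13 RPKM) led with overlapping ranges, and in K148Q replicates 1 and 2 alone XPC (16.3 RPKM) was ahead of RRM2B (15.5 RPKM). BTG2 and MDM2 overlapped too, and so did the lowest genes, ZMAT3 with FAS and FAS with TP53INP1, the last at 1.43 ± 0.49 RPKM. Without replicate 3 the other ranks were the same, and of these ranges only those of XPC and RRM2B overlapped. In parental cells RRM2B led with 20.9 ± 0.305 RPKM, then DDB2 with 17.2 ± 0.459 and XPC with 13.6 ± 0.345 RPKM. BTG2 (10.8 ± 0.07 RPKM) and MDM2 (10.7 ± 0.597 RPKM) overlapped there, and TP53INP1 was last with 1.18 ± 0.0318 RPKM. BTG2 thus had rank 1 of 9 in K148R cells and rank 4 in K148Q and in parental cells.

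Among themselves, MDM2 and RRM2B had the most similar profiles, with a root mean square difference of 0.115 in centred log2 CPM over the 9 libraries, K148Q replicate 3 included. ZMAT3 and SESN1 were each other's nearest among the 9 genes, at 0.164. DDB2 was far from all of them, with SESN1 nearest at 0.682. Over 9066 other genes with a mean of at least 10 CPM, the profiles most like that of MDM2 were EPM2AIP1 (0.0667) and ARL6IP5 (0.069), and those most like RRM2B were EPM2AIP1 (0.0676) and SECISBP2L (0.0837). XPC was nearest to GOLGA2 (0.0289) and CYTH2 (0.0411), and DDB2 to TBC1D2B (0.031) and WRAP73 (0.0515). BTG2 was nearest to IFI30 (0.083) and TM7SF2 (0.131), and TP53INP1 to SC5D (0.123) and PDP1 (0.164). ZMAT3 was nearest to KLHL24 (0.0778) and UBTD2 (0.124), and SESN1 to CAMLG (0.0927) and CDC42SE2 (0.0958). FAS, over 9067 such genes, was nearest to DGKE (0.0709) and EVI2B (0.0933).

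The rest of the pathway was read from a list of 68 other genes, of which 63 passed the filter on low counts. In K148R against parental cells 27 of the 63 rose and 19 fell, 42.9% and 30.2%, with a median log2 fold change of 0.07. In K148Q against parental cells 14 rose and 29 fell, 22.2% and 46%, with a median of -0.15. That median was the same to 2 decimals over 62 genes with SPATA18, at 0 counts in parental cells, held at its bound. In K148R against K148Q cells 32 were higher and 15 lower, 50.8% and 23.8%, with a median of 0.19. These shares stand beside the shares of all tested genes given above, and no test of the list as a whole was made. Without K148Q replicate 3, 17 rose and 30 fell in K148Q against parental cells, and 9 rose without K148Q replicate 1 or parental replicate 3.

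Regulators that act on the p53 protein moved in both directions. MDM4, a relative of MDM2 that blocks p53, averaged 53.6 ± 1.81 CPM in K148R, 34.0 ± 3.5 CPM in K148Q and 43.7 ± 1.13 CPM in parental cells (SD, n = 3 each), higher in K148R (log2 fold change 0.30, adjusted p = 0.0034) and lower in K148Q (-0.36, adjusted p = 0.0018). PPM1D, a phosphatase that turns the p53 response off, and USP7, which removes ubiquitin from MDM2 and p53, also rose in K148R cells, by 0.47 and 0.13 on the log2 scale (adjusted p = 0.00044 and 0.041). USP7 did not pass in K148Q against parental cells (adjusted p = 0.37) or in K148R against K148Q cells (adjusted p = 0.26).

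The regulators that fell in K148R against parental cells were HIPK2, CHEK2, ATM, TP53BP1, CDKN2A and COP1. HIPK2, a kinase that phosphorylates p53, was at 5.39 ± 0.98 CPM in K148R, 17.8 ± 1.79 CPM in K148Q and 38.7 ± 1.14 CPM in parental cells (SD, n = 3 each), and the checkpoint kinase gene CHEK2 at 17.6 ± 1.03, 61.4 ± 2 and 73.0 ± 0.848 CPM in the same order of genotypes. Both fell in K148R against parental cells, by 2.83 and 2.04 on the log2 scale (adjusted p = 2.4e-11 and 2.5e-12), and in K148Q against parental cells, by 1.12 and 0.25 (adjusted p = 7.6e-07 and 0.0055). The damage kinase gene ATM fell by 0.33 and the damage response gene TP53BP1 by 1.14 in K148R cells (adjusted p = 0.014 and 3.4e-09), and by 0.45 and 0.47 in K148Q cells (adjusted p = 0.0037 and 9.4e-05). CDKN2A, a locus that also encodes the MDM2 inhibitor ARF, fell in K148R cells by 0.93 (adjusted p = 1e-07). The ubiquitin ligase gene COP1, deposited as RFWD2, fell in K148R cells by 0.38 (adjusted p = 0.00036), and RCHY1 did not pass in any of the 3 comparisons.

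Of 7 growth arrest genes tested, 5 rose and 1 fell in K148R against parental cells, 71.4% and 14.3%, against 37.8% and 37.3% of all tested genes. The gene that fell was CCNG1, which encodes cyclin G1, at 77.0 ± 15.8 CPM in K148R and 239 ± 1.76 CPM in parental cells (SD, n = 3 each), 3.1-fold lower (adjusted p = 1.5e-05), and it is named here after its values were seen. CDKN1A, which encodes the cyclin-dependent kinase inhibitor p21, was at 385, 376 and 352 CPM in K148R, 114, 118 and 98.8 CPM in K148Q, and 102, 105 and 99.3 CPM in parental libraries. The K148R libraries stood apart, and K148Q overlapped with parental cells. CDKN1A was 3.64-fold higher in K148R than in parental cells (log2 fold change 1.86, SE 0.0682, adjusted p = 3.7e-12), and the difference in K148Q against parental cells did not pass (0.11, adjusted p = 0.17). The kinase gene PLK2 averaged 37.6 ± 2.55 CPM in K148R and 12.2 ± 0.436 CPM in parental cells, and GADD45B, a stress gene from the repair part of the list, 63.7 ± 7.06 and 13.8 ± 0.298 CPM (SD, n = 3 each). Both rose (log2 fold change 1.62 and 2.20, adjusted p = 3.4e-09 and 4.8e-11).

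Of 18 cell death genes tested, 8 rose and 5 fell in K148R against parental cells, 44.4% and 27.8%, near the 37.8% and 37.3% of all tested genes. In K148Q against parental cells 3 rose and 10 fell, 16.7% and 55.6%, against 27% and 26.3% of all tested genes. BAX, a pore-forming death effector, averaged 229 CPM in K148R and 241 CPM in parental cells and did not pass (adjusted p = 0.32), and the death receptor gene TNFRSF10B, at 159 and 166 CPM, did not pass either (adjusted p = 0.26), nor did it in the other comparisons (adjusted p = 0.78 and 0.43). EDA2R, a receptor of the tumour necrosis factor family, was at 3.58 ± 0.414 CPM in K148R, 2.61 ± 0.592 CPM in K148Q and 17.9 ± 1.49 CPM in parental cells, and fell in both mutants (log2 fold change -2.32 and -2.76, adjusted p = 1.9e-09 and 2.8e-09). TNFRSF10C, a decoy receptor, was at 2.24 ± 0.319, 9.05 ± 0.66 and 4.53 ± 0.384 CPM in K148R, K148Q and parental cells (SD, n = 3 each), lower in K148R and higher in K148Q than in parental cells (adjusted p = 6.2e-05 and 3.4e-05). CDIP1 was 2.05 higher on the log2 scale in K148R than in K148Q cells (adjusted p = 1.4e-12), and PIDD1 was lower by 1.27 (adjusted p = 3.1e-08). In K148Q against parental cells TNFRSF10A and TP53I3 rose, by 0.58 and 0.97 (adjusted p = 0.00069 and 0.00016).

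Among the remaining targets, SPATA18, known from the removal of damaged mitochondrial proteins, had 6.69, 6.44 and 6.57 CPM in the K148R libraries, 2, 1 and 2 counts in the K148Q libraries, and 0 counts in the 3 parental libraries. In K148R cells it was at least 103-fold higher than in parental cells, against a floor of 3 counts over the parental libraries (0.0636 CPM). The bound covers counting error only. FUCA1, a lysosomal enzyme, averaged 95.6 ± 6.19 CPM in K148R, 167 ± 4.5 CPM in K148Q and 43.1 ± 1.5 CPM in parental cells, and rose in both mutants (adjusted p = 5.4e-10 and 1.1e-11). TP53I11 averaged 0.52 ± 0.117, 3.60 ± 1.28 and 38.4 ± 2.09 CPM in the same genotypes and fell in both (adjusted p = 2.9e-12 and 4.9e-10). CYFIP2, a regulator of actin, was at 41.7 ± 2.88 CPM in K148R, 9.06 ± 0.615 CPM in K148Q and 44.5 ± 0.551 CPM in parental cells (SD, n = 3 each). Like ZMAT3 and SESN1 it fell in K148Q against parental cells (log2 fold change -2.30, adjusted p = 6.6e-11) and did not pass in K148R against parental cells (-0.09, adjusted p = 0.29). TRIM22, an antiviral gene, averaged 270 ± 6.2 CPM in K148R, 72.0 ± 6.39 CPM in K148Q and 143 ± 4.95 CPM in parental cells (SD, n = 3 each). It was higher in K148R than in K148Q cells (adjusted p = 2.3e-12). Against parental cells it rose in K148R and fell in K148Q (log2 fold change 0.91 and -0.99, adjusted p = 5.2e-09 and 1.5e-08).

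**Figure D4:**
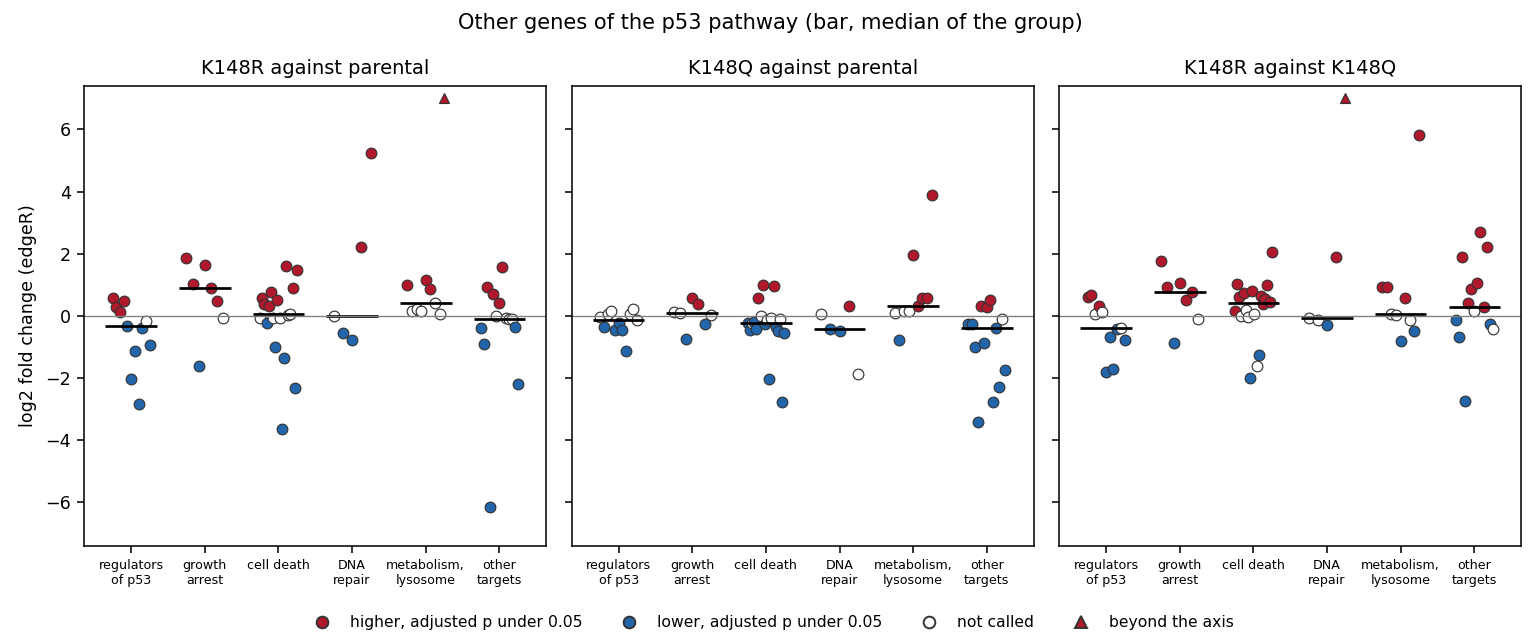
Log2 fold change (vertical axis) of the 63 other tested p53 pathway genes in the 3 comparisons, by role, with a bar at each median. Red points passed the test as higher, blue as lower and open points did not pass, and triangles lie beyond the axis. Values of genes with 0 counts in a genotype depend on the prior count of the fit. Points of growth arrest genes lie mostly above 0 in K148R against parental cells, and regulators lie on both sides.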

How the data were processed

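The values are raw counts of reads for each gene symbol, in the single table that the authors deposited, and no column belonged to another series (0 left out). Per the submitters' processing notes, the tools were FastQC 0.11.7, HISAT2 2.0.5 and featureCounts 1.5.2, and the build was GRCh38. The notes used here give no options, annotation or strand setting, so reads of overlapping genes cannot be assigned with certainty.

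Groups came from the genotype in the labels. Genes were filtered with filterByExpr by group, which left 12845, scaled with TMM and fitted over all 9 libraries with a term per genotype in edgeR 4.0.16 (R 4.3.3). Each pair of genotypes was compared by edgeR's quasi-likelihood F test, with robust dispersions, and genes were called at a Benjamini-Hochberg adjusted p under 0.05 over all tested genes. SE is the log2 fold change over the square root of F, and intervals are 95%. Exact permutation of 3 against 3 libraries cannot go below p = 0.1. The fit was tested on counts simulated around parental means, with few genes changed and no shift tied to GC content. That setting differs from these data, where most tested genes were called and K148Q replicate 3 stood apart.

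Genes were named by rule: all 9 targets, all regulators, and from each comparison of the other list the 4 largest rises and falls of called genes with at least 5 CPM and the 2 most abundant uncalled genes. Some results are not reported here. The targets and lists were chosen with earlier results of these data known. COP1 was matched through a RefSeq synonym. SFN, TP53AIP1, GDF15, GLS2 and TRIM32 failed the filter. GC content and lengths came from GENCODE v29 and promoter windows from RefSeq (GRCh38.p14). Alternatives were DESeq2 1.42.0, limma-voom (limma 3.58.1), RLE and upper quartile scaling, no filter, a filter of 5 CPM in 3 libraries, fits of only the compared genotypes, a replicate block, and leaving out each library.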

Additional observations from a re-analysis of the deposited data

How the results depend on the processing

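Over the 8 alternatives other than leaving out a library, the counts of called genes among the 9 targets and the 68 other pathway genes stayed within 1.5 times the reported count, except that 2 targets rather than 1 were lower in K148R against parental cells when only those libraries were fitted, because SESN1 then passed (-0.14, adjusted p = 0.05 after rounding). Leaving out single libraries mattered most for K148Q against parental cells: targets called higher ranged from 0 to 1, targets called lower from 3 to 5, and other pathway genes called higher from 9 to 17. The lowest count of 9 came without parental replicate 3 or K148Q replicate 1, and the count of 5 without K148Q replicate 3. In the same comparison the log2 fold change of FAS ranged from -0.24 to 0.0792 (0.0278 without K148Q replicate 1 and 0.0792 without K148Q replicate 2), and that of TP53INP1 from -0.0307 (without K148Q replicate 3) to 0.45. In K148R against parental cells 6 to 7 targets were called higher and 1 lower whichever library was left out. RLE and upper quartile scaling moved the median log2 fold change of all genes by -0.043 to 0.037. With the replicate block, 7 targets rather than 6 were higher in K148R (ZMAT3 added, 0.23, adjusted p = 0.048) and 4 rather than 3 lower in K148Q against parental cells (RRM2B added, -0.23, adjusted p = 0.044), and the 8 higher and 1 lower in K148R against K148Q cells were as reported. Deviations of same-numbered libraries had correlations from -0.024 to 0.27. The largest were between K148R and K148Q, at 0.14 for replicate 1 and 0.27 for replicate 3, against 0.012 for replicate 2. Whether same-numbered libraries were handled together cannot be told from these values, and the main fit did not pair them. Depth limits FAS and TP53INP1 most, with 296 to 377 counts over the K148Q or parental libraries.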
